A study of Mus musculus with 22 samples.

Results

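The 30 genes described here encode enzymes and regulators of sterol and fatty acid synthesis. They were taken from a list of the pathway under the sterol regulatory element binding proteins, by gene symbol, and each of the 30 was present among the 31116 genes counted in both cell types. The list holds 8 genes of the mevalonate steps, 11 of the steps from squalene to cholesterol, 5 regulators, 1 sterol carrier and 5 genes of fatty acid synthesis. All 30 passed the filter on low counts in both cell types, where 22353 genes were tested in monocytes and 20944 in alveolar macrophages.

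RNA enriched for poly(A) transcripts with oligo(dT) beads was sequenced from 22 samples of cells sorted from mouse lungs. Of these, 12 were Ly6Chi monocytes, 4 from control mice, 4 taken 3 d and 4 taken 14 d after tamoxifen, and 10 were SigF+CD11b- alveolar macrophages, 4 from control mice, 3 taken at 3 d and 3 at 14 d. All mice, the controls included, were C57BL/6 with the genotype SP-CI73T mutant, which carries the I73T substitution in surfactant protein C, a protein made by alveolar type II cells. Oral tamoxifen let an estrogen receptor controlled Flp-O recombinase, carried in the Rosa26 locus, remove a neomycin cassette and so raised the amount of mutant protein, which the controls also make at a lower level. The labels call the controls untreated, whereas the study describes them as oil treated mutant mice in its results and in its methods also includes mutant mice that received tamoxifen but lacked the recombinase. The question was how the monocytes and macrophages of the lung differ at the start (3 d) and the peak (14 d) of this injury. Mice of both sexes were used, no label gives an age, and no label says that replicates are separate mice, so p-values here measure the spread between these samples, which may be technical.

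Cells make cholesterol from acetyl-CoA through mevalonate, isoprenoid units, squalene and lanosterol, and make fatty acids from the same acetyl-CoA. When sterol in the endoplasmic reticulum is low, Scap carries the precursors of the transcription factors SREBP-1 and SREBP-2, encoded by Srebf1 and Srebf2, to the Golgi, where they are cut and released to the nucleus, and Insig1 and Insig2 hold Scap back when sterol is high. In macrophages the fatty acid genes among them are also turned on through liver X receptors, and alveolar macrophages are known for taking up and breaking down surfactant lipid.

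Promoter sequence of the members is shown for 5 genes because the pathway is named for a sequence element in such promoters and because 4 of these 5 genes fell in monocytes at 14 d (Hmgcs1, Acat2, Srebf2 and Fasn) while Mvd, shown beside them, did not. The sequences are from RefSeq on GRCm38.p6, 5′ to 3′ on the strand of the gene, and lie within the 250 bases before the annotated start, cut where the annotated transcript of the gene begins. Capitals mark matches to CCAAT, the box bound by the factor NF-Y, and to CACNCCAC, a core of the sterol regulatory element, each searched on both strands. In Fasn a pair of CCAAT matches on opposite strands overlap by 2 bases.
Hmgcs1 (chr13:119690101-119690350, plus strand): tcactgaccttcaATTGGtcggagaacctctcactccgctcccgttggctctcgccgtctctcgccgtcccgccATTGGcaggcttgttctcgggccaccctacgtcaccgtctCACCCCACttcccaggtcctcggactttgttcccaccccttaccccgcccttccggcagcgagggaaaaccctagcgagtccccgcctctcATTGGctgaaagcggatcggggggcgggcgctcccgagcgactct
Acat2 (chr17:12960748-12960975, minus strand): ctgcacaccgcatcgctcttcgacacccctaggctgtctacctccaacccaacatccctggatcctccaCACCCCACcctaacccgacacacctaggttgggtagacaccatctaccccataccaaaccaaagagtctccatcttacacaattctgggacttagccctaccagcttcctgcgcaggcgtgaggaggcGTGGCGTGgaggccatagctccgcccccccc
Srebf2 (chr15:82147019-82147180, plus strand): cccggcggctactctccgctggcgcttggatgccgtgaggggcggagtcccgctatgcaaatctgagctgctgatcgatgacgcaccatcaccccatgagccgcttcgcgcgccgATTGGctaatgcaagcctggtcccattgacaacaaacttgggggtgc
Fasn (chr11:120824548-120824797, minus strand): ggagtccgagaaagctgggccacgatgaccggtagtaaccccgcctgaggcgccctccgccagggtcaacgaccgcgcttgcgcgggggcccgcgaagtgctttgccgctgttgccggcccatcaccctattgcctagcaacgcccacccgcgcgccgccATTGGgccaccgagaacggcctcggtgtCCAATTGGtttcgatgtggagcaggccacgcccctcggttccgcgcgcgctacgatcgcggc
Mvd (chr8:122443423-122443672, minus strand): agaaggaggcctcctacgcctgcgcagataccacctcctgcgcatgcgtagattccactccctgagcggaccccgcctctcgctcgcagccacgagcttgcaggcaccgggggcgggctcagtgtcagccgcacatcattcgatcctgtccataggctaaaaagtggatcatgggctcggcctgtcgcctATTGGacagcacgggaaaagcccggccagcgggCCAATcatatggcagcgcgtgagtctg

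A window of 250 bases was found for 24 of the 30 members and not for Fdps, Fdft1, Sqle, Stard4, Scd1 and Scd2. CCAAT stood in 20 of the 24 (83.33%), against 10133 of 27025 genes with a window (37.49%). Among members lower in monocytes at 14 d it stood in 7 of 8 with a window, and among the others in 13 of 16. CACNCCAC stood in 3 of the 24, Acat2, Hmgcs1 and Insig1 (12.5%), against 6.05% of all genes, and its longer form TCACNCCAC in Hmgcs1 alone (4.17%), against 1.22%.

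The monocyte libraries held 15451460 to 28789639 counts each. Those of macrophages held 4610720 to 17074863, with the fewest at 14 d (4610720 to 6838893). More genes were detected in monocytes at 3 d (40119 to 41134) than in the other monocyte samples (24775 to 32492), and in macrophages at 14 d (27699 to 30627) than in the other macrophage samples (21499 to 27616). Counts on genes that are not protein coding were also highest in these groups (6.56 to 9.11% and 5.99 to 7.63%, against 3.13 to 5.34% elsewhere). The factors of trimmed mean of M-values (TMM) scaling were 1.20 to 1.24 in monocytes at 3 d and 1.17 to 1.29 in macrophages at 14 d, against 0.841 to 0.994 in the other groups. Values of both groups depend on the scaling chosen. Both 14 d groups carried the Y-linked genes Ddx3y (36.7 to 56.1 CPM), Uty, Eif2s3y and Kdm5d with Xist at 0.0464 to 4.03 CPM, whereas Xist was at 26.0 to 304 CPM in control and 3 d samples. Sex and 14 d cannot be told apart. In bulk samples fewer cells of a type and less RNA per cell also cannot be told apart.

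Of the sorting markers, Ly6c2 was high in the monocytes and Siglecf in the macrophages. In monocytes Ly6c2 ranged from 2569 to 3281 CPM in controls and from 1314 to 1789.8 CPM at 14 d, while in macrophages it did not pass 6.19 CPM. The 7 monocyte markers, Ly6c2 among them, summed in monocytes to 6598 to 12092 CPM in controls, 6089 to 7452 CPM at 3 d and 6544 to 9137.5 CPM at 14 d. At 14 d 1 of the 7 was called higher and 2 lower, with a median log2 fold change of -0.04. In macrophages Siglecf ranged from 90.1 to 348 CPM, and in no monocyte sample did it pass 29.2 CPM. Of 9 alveolar macrophage markers, Siglecf among them, all 9 were called higher in macrophages than in monocytes in controls and at 3 d. At 14 d 5 of the 9 were called higher and 2 were below 0 on the log2 scale. Within macrophages all 9 were below 0 at 14 d against controls and 6 were called lower, where 22.9% of all genes tested were called lower. The summed level of 6 T and NK cell markers, among them Gzma and Nkg7, was 314 to 1337 CPM in control monocytes, 13.5 to 261 CPM at 3 d and 16.4 to 37.0 CPM at 14 d. The 9 alveolar macrophage markers summed to 8459 to 15465 CPM in control monocytes, 4426 to 9107 CPM at 3 d and 15851 to 21380 CPM at 14 d, most of it from Chil3, which was the 1 marker called higher at 14 d, while 6 of the 9 were below 0 on the log2 scale. The neutrophil markers summed to 200.5 to 290.3 CPM in control monocytes, 224 to 1357 CPM at 3 d and 651 to 1330.3 CPM at 14 d, and to 68.5 to 212 CPM in control macrophages, 143 to 185 CPM at 3 d and 374 to 1501 CPM at 14 d. In macrophages the fibroblast markers summed to 16.4 to 22.1 CPM in controls, 18.1 to 33.4 CPM at 3 d and 152 to 331 CPM at 14 d, and 7 monocyte markers to 27.6 to 50.5, 75.8 to 148 and 139 to 273 CPM in the same order. Airway epithelium markers in macrophages summed to 18.4 to 83.0 CPM in controls, 404 to 842 CPM at 3 d and 34.0 to 119 CPM at 14 d, and B cell markers to 54.2 to 142, 166 to 529 and 88.5 to 163 CPM, both highest at 3 d. The 4 eosinophil markers, Siglecf among them, summed in macrophages to 152 to 215 CPM at 14 d and 232 to 348 CPM in controls. Of these 4, however, 3 were called higher at 14 d and 1 lower, with a median log2 fold change of 5.81. In monocytes the sum of the type II cell markers went from 1673 to 1897 CPM in controls to 1133 to 1185 CPM at 3 d and 1130.5 to 1462 CPM at 14 d. The sum of the B cell markers went from 73.6 to 106 CPM to 27.9 to 44.7 and 23.4 to 48.1 CPM. Neither sum overlapped the controls. Of the 9 type II markers tested in monocytes, 1 was called higher and 4 lower at 3 d, and 0 higher and 3 lower at 14 d. No T and NK marker was at 0 in any sample, and 1 fibroblast or neutrophil marker at most was at 0 in a sample. The part of these cells in the results below was not tested.

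In monocytes the members were lower at 14 d than in controls. Of the 30 members, 12 fell and none rose (16 and 0 at an unadjusted p under 0.05), where 8.56% of all genes tested were called, 5.34% lower and 3.22% higher. A call means an adjusted p under 0.05 (edgeR quasi-likelihood test, Benjamini-Hochberg) and a fold change above 1.5, and CPM are TMM-scaled counts per 1e6. Log2 fold changes are given with their standard error. Of the 12, 4 act in the mevalonate steps, 5 in the sterol steps, and the others were Srebf2, Stard4 and Fasn. The median log2 fold change of the members was -0.51, against 0.09 over all genes, and 22 of 30 members were below 0. Under the 5 scalings run no member rose, and between 7 (library size scaling) and 13 (DESeq2) fell. The median of the members minus that of all genes was -0.62 to -0.60 under these scalings. It was -0.52 with a stricter filter that kept genes averaging over 1 log2 CPM. A scaling shifts all genes of a comparison nearly alike, so this difference can hardly move with the scaling, here or in the comparisons below. Leaving out a single sample left 6 to 13 members lower, 6 without control 1, 14 d sample 2 or 14 d sample 3, and 7 without control 4 or 14 d sample 1. The 6 lost in the first 3 of these fits were Hmgcs1, Acat2, Sqle, Cyp51, Msmo1 and Sc5d. Idi1, Fdps, Fdft1, Srebf2, Stard4 and Fasn were called in each of these 12 fits and under all 4 scalings run in edgeR.

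**Figure D1:**
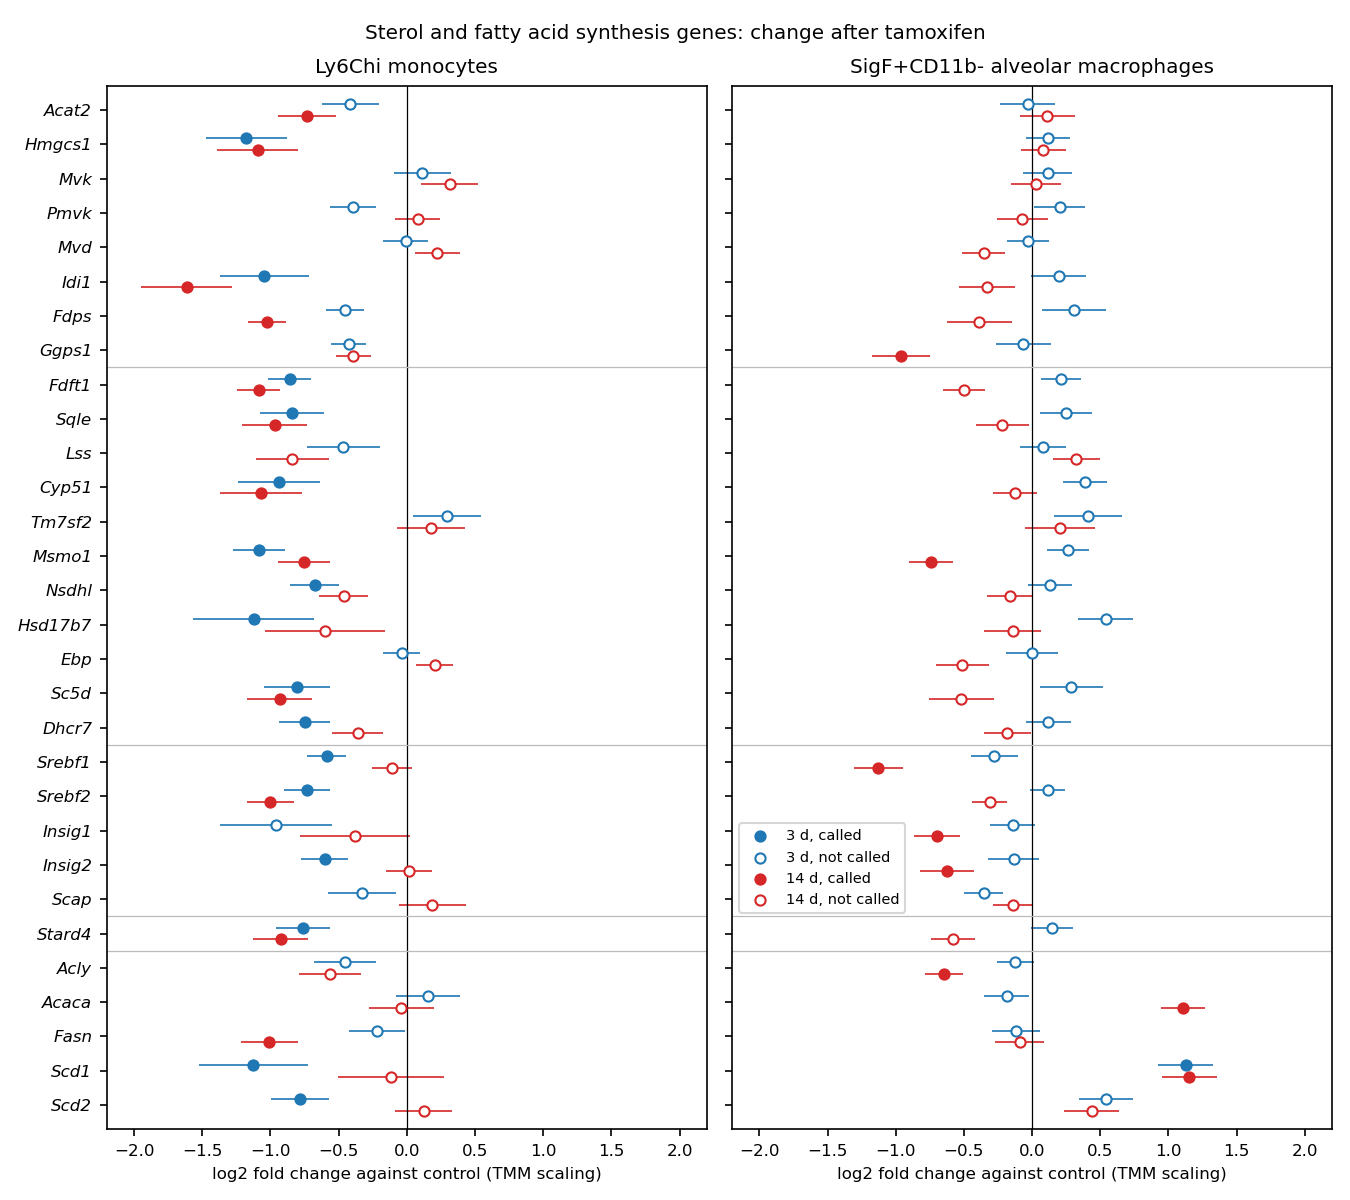
Log2 fold change against control for the 30 members in monocytes (left) and alveolar macrophages (right), at 3 d (blue) and 14 d (red), with the standard error as a bar and filled points for members called. Grey lines part the mevalonate genes, the sterol genes, the regulators, Stard4 and the fatty acid genes. In monocytes 12 members are filled at 14 d and all lie left of 0, and the 16 filled at 3 d stay left of 0 in every scaling while most lose the call. In macrophages Scd1 and Acaca lie right of 0 at 14 d in every scaling, and the calls to the left depend on it.

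Among the mevalonate genes, Idi1 (ENSMUSG00000058258, chr13:8885501-8892451, plus strand), the isomerase that makes the isoprenoid units ready for joining, fell most. Its level was 30.6, 18.1, 14.4 and 24.2 CPM in the 4 control samples, 8.33, 6.29, 9.19 and 18.5 CPM at 3 d and 6.91, 5.77, 6.07 and 9.76 CPM at 14 d. Every 14 d sample was below every control (log2 fold change -1.61 ± 0.33, adjusted p = 0.00649), and 3 d sample 4 alone lay within the control range. Hmgcs1 (ENSMUSG00000093930, chr13:119690379-119708260, plus strand), the synthase that commits acetyl units to the pathway and whose promoter above holds the longer sterol element, was at 105, 55.5, 48.7 and 84.3 CPM in controls, 23.6, 24.1, 30.6 and 51.3 CPM at 3 d and 30.8, 28.1, 30.3 and 48.01 CPM at 14 d. The 14 d samples all lay below the controls, the highest of them, sample 4, by less than 1 CPM. For Hmgcs1 the log2 fold change was -1.09 ± 0.29 (adjusted p = 0.0316), a call lost with library size scaling and in 6 of 12 fits that left out a sample. Fdps, which joins isoprenoid units to farnesyl diphosphate, was at 68.04, 64.1, 68.96 and 70.8 CPM in controls, 42.7, 42.7, 54.6 and 58.8 CPM at 3 d and 34.6, 32.8, 32.9 and 32.98 CPM at 14 d. The 3 groups did not overlap, the 14 d samples being lowest and close to one another. For Fdps the value was -1.03 ± 0.14 (adjusted p = 0.00031) on the log2 scale. Some of its counts are uncertain, since 26.7% of the exonic bases of Fdps are shared with Gm43738 on the same strand.

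Acat2, which makes acetoacetyl-CoA at the head of the pathway, was called as well, with 15.5, 15.2, 11.6 and 14.1 CPM in controls and 9.65, 6.06, 8.67 and 9.55 CPM at 14 d. Its log2 fold change was -0.73 ± 0.21 (adjusted p = 0.0429), not called under library size scaling, upper quartile scaling or TMM from highly expressed genes. The other mevalonate genes did not pass the test at 14 d. The kinases Mvk and Pmvk and the decarboxylase Mvd, which turn mevalonate into the isoprenoid unit, were at log2 fold changes of 0.31 ± 0.21, 0.08 ± 0.17 and 0.22 ± 0.17. Ggps1, which leads to geranylgeranyl groups and away from sterol, was at -0.39 ± 0.13.

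Of the 11 sterol genes, 5 fell at 14 d. Fdft1 (ENSMUSG00000021273, chr14:63145150-63179578, minus strand), squalene synthase, was at 67.7, 58.6, 55.4 and 72.2 CPM in controls, 31.1, 31.2, 33.2 and 44.3 CPM at 3 d and 32.7, 28.4, 27.2 and 31.4 CPM at 14 d. Neither injured group overlapped the controls. On the log2 scale Fdft1 was at -1.09 ± 0.16 (adjusted p = 0.000527). In Fdft1 18.3% of the exonic bases are shared with Ctsb on the other strand. Cyp51, the lanosterol demethylase, was at 113, 96.9, 59.6 and 110.2 CPM in controls, 38.6, 32.7, 46.8 and 80.6 CPM at 3 d and 41.7, 29.2, 44.7 and 65.3 CPM at 14 d. Control 3, at the low end, and 14 d sample 4 and 3 d sample 4, at the high end, brought the groups into overlap. The fitted change of Cyp51 on the log2 scale was -1.07 ± 0.302 (adjusted p = 0.0394), called in only 3 of 12 fits that left out a sample. Sqle, the epoxidase regarded as a rate-limiting step after squalene, was at 72.1, 46.8, 42.9 and 62.6 CPM in controls and 23.9, 25.8, 27.8 and 37.1 CPM at 14 d, all below the controls. For Sqle the log2 fold change was -0.97 ± 0.24 (adjusted p = 0.0186). Msmo1, a methyl sterol oxidase, was at 179, 129, 129.8 and 208 CPM in controls and 98.3, 81.2, 90.6 and 113 CPM at 14 d. The log2 change of Msmo1 was -0.75 ± 0.19 (adjusted p = 0.0224). Sc5d, a desaturase near the end of the pathway, was at 86.2, 56.3, 43.02 and 61.7 CPM in controls and 40.95, 21.9, 30.01 and 36.6 CPM at 14 d. On the log2 scale Sc5d was at -0.93 ± 0.24 (adjusted p = 0.0254). Both groups of each gene were apart, although the highest 14 d sample of Sc5d, sample 1, came within 3 CPM of control 3.

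The other 6 sterol genes were not called at 14 d. Lss, which closes the sterol rings, was lower in every 14 d sample (log2 fold change -0.84 ± 0.27, adjusted p = 0.0702), as was the X-linked Nsdhl (log2 fold change -0.46 ± 0.18, adjusted p = 0.141), and neither passed the test. Dhcr7, the last step to cholesterol, was at -0.36 ± 0.19 (adjusted p = 0.282), Hsd17b7 at -0.601 ± 0.44 (adjusted p = 0.464), Tm7sf2 at 0.18 ± 0.25 (adjusted p = 0.734) and the X-linked Ebp at 0.21 ± 0.14 (adjusted p = 0.411) on the log2 scale.

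Among the regulators, Srebf2 fell and Srebf1 did not pass the test at 14 d. Srebf2 (ENSMUSG00000022463, chr15:82147181-82205379, plus strand), whose product drives mainly the sterol genes, was at 252, 209, 231 and 218 CPM in controls, 115, 121, 146 and 166 CPM at 3 d and 118, 84.8, 108 and 144 CPM at 14 d. The controls stood above every injured sample at both times. The fitted change of Srebf2 on the log2 scale was -0.9999 ± 0.17 (adjusted p = 0.00169). Srebf1 (ENSMUSG00000020538, chr11:60199089-60222581, minus strand), more tied to fatty acid synthesis, was at 100.4, 119, 121 and 84.99 CPM in controls, 77.4, 74.9, 64.5 and 66.3 CPM at 3 d and 113, 88.7, 101 and 92.8 CPM at 14 d, the last within the range of the controls. For Srebf1 the log2 fold change was -0.11 ± 0.15 (adjusted p = 0.716).

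Insig1, a brake on the SREBPs and itself one of their targets, varied widely between samples, at 20.7, 37.3, 39.97 and 71.4 CPM in controls, 28.8, 27.3, 20.9 and 10.1 CPM at 3 d and 15.95, 28.2, 40.4 and 45.7 CPM at 14 d. Each of the 3 groups overlapped the others. The log2 change of Insig1 was -0.38 ± 0.405 (adjusted p = 0.634). The lowest for Insig1 was 3 d sample 4, which was highest for most sterol genes. Insig2, the related brake, was at 32.2, 23.5, 24.4 and 24.3 CPM in controls, 17.2, 13.6, 17.04 and 20.9 CPM at 3 d and 24.2, 26.3, 26.1 and 28.8 CPM at 14 d, with controls and 14 d overlapping. On the log2 scale Insig2 was at 0.01 ± 0.17 (adjusted p = 0.975). Scap, the escort of the SREBPs, was at 14.7, 22.4, 39.2 and 26.4 CPM in controls, 23.8, 20.7, 21.6 and 15.6 CPM at 3 d and 24.1, 29.3, 31.2 and 32.3 CPM at 14 d. Control 1 was the lowest of all 12 and control 3 the highest, and the controls overlapped both injured groups. The fitted change of Scap on the log2 scale was 0.19 ± 0.25 (adjusted p = 0.71).

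Stard4, a carrier that moves cholesterol between membranes, fell from 32.98, 21.8, 26.9 and 40.7 CPM in controls to 14.9, 15.04, 15.4 and 19.1 CPM at 14 d, with 16.1, 16.8, 17.5 and 21.7 CPM at 3 d. No injured sample reached the lowest control, although 3 d sample 4 came within 0.1 CPM of it. For Stard4 the log2 fold change was -0.93 ± 0.199 (adjusted p = 0.00843).

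Of the fatty acid genes only Fasn (ENSMUSG00000025153, chr11:120805846-120824547, minus strand), the synthase that builds palmitate, was called at 14 d, with 49.3, 35.2, 41.8 and 42.4 CPM in controls, 37.7, 25.3, 30.05 and 52.2 CPM at 3 d and 21.7, 21.4, 17.8 and 23.02 CPM at 14 d. The 14 d samples lay below all 8 others. The log2 change of Fasn was -1.01 ± 0.21 (adjusted p = 0.00649). The highest of the 12 was 3 d sample 4. Acly, which supplies cytosolic acetyl-CoA to both pathways, was at -0.56 ± 0.23 (adjusted p = 0.153), Acaca, the carboxylase that makes malonyl-CoA, at -0.04 ± 0.24 (adjusted p = 0.948), and the desaturases Scd1 and Scd2 at -0.12 ± 0.39 (adjusted p = 0.898) and 0.12 ± 0.21 (adjusted p = 0.782) on the log2 scale, none of them called.

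**Figure D2:**
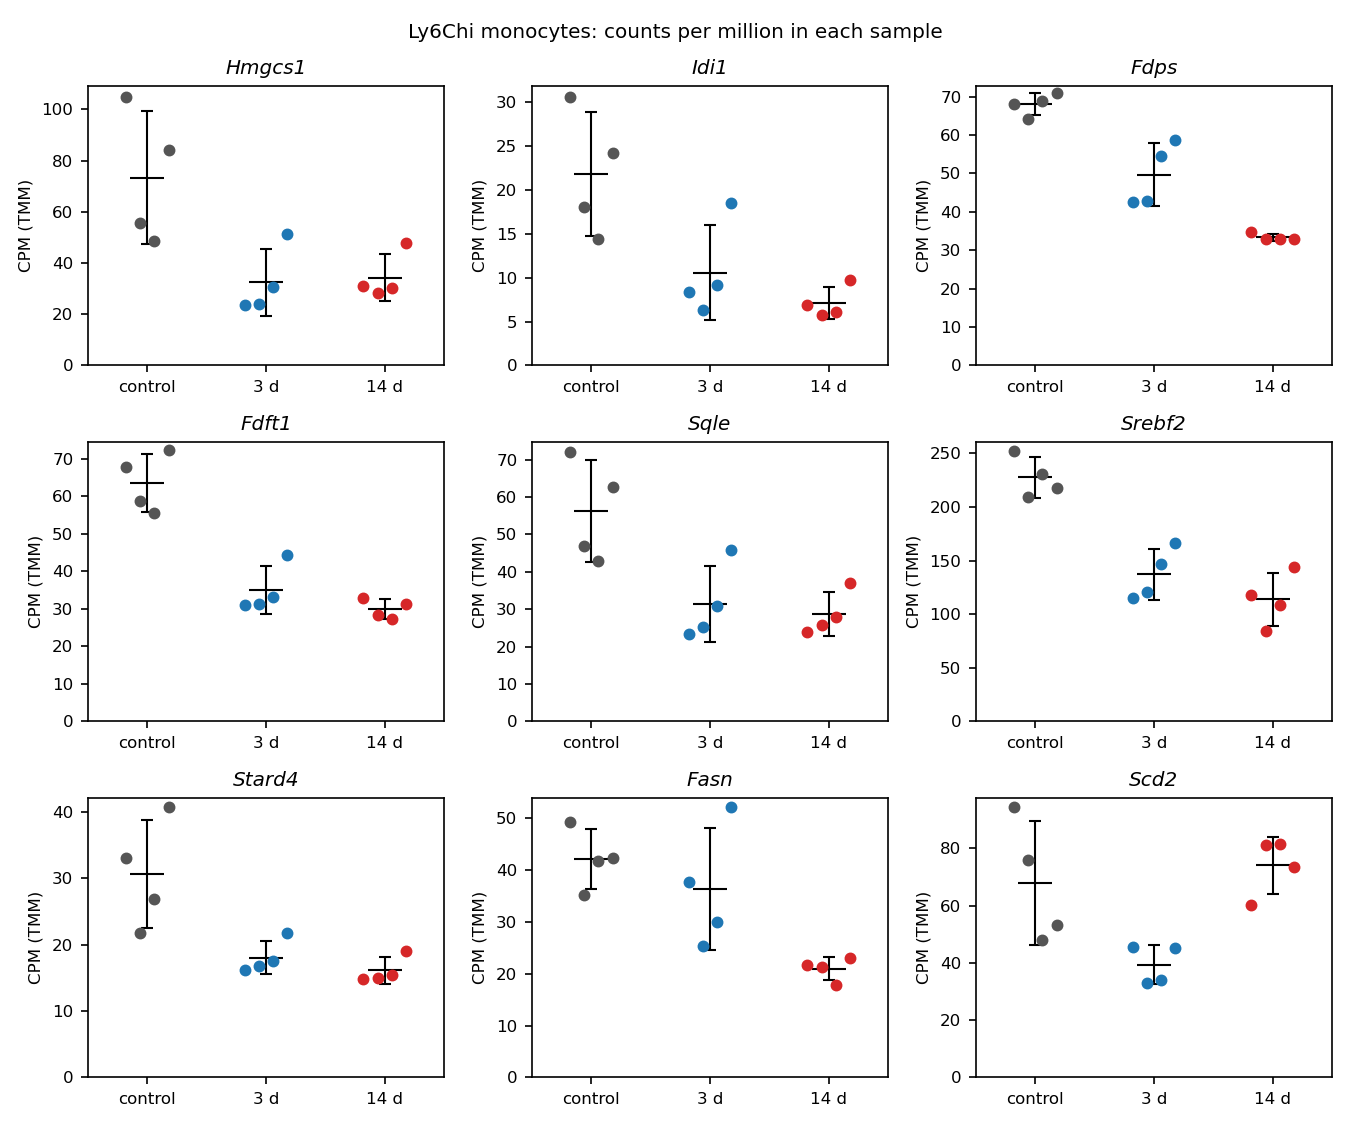
TMM-scaled CPM of 9 members in each monocyte sample, by group (control grey, 3 d blue, 14 d red), with the mean and SD as a line and bar, n = 4 per group. In each panel but Scd2 the 14 d samples lie below every control, and in Scd2 the 3 d samples lie below all others, a difference called in TMM scaling and DESeq2 only.

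At 3 d the monocyte result depended on the scaling. With TMM scaling 16 members were lower than in controls and none higher, where 51.2% of all genes tested were called, 14.4% lower and 36.8% higher. With DESeq2 12 were lower and none higher, with upper quartile scaling 1 was lower, with library size scaling 1 was lower and 3 higher, and with TMM computed on highly expressed genes (averaging over 5 log2 CPM) none was lower and 3 higher. A stricter filter, which kept the 12055 genes averaging over 1 log2 CPM, also left 1 lower, and no filter gave 23 lower. The median log2 fold change of all genes was 0.22 with TMM, 0.36 with DESeq2 and 0.62 to 0.74 with the other scalings, and that of the members -0.64, -0.51 and -0.24 to -0.12. The median of the members minus that of all genes was thus -0.87 to -0.85 on the log2 scale under the 5 scalings, and -0.27 with the stricter filter. Leaving out a sample gave 8 to 17 members lower, 8, 9 and 10 without 3 d samples 2, 3 and 1.

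**Figure D3:**
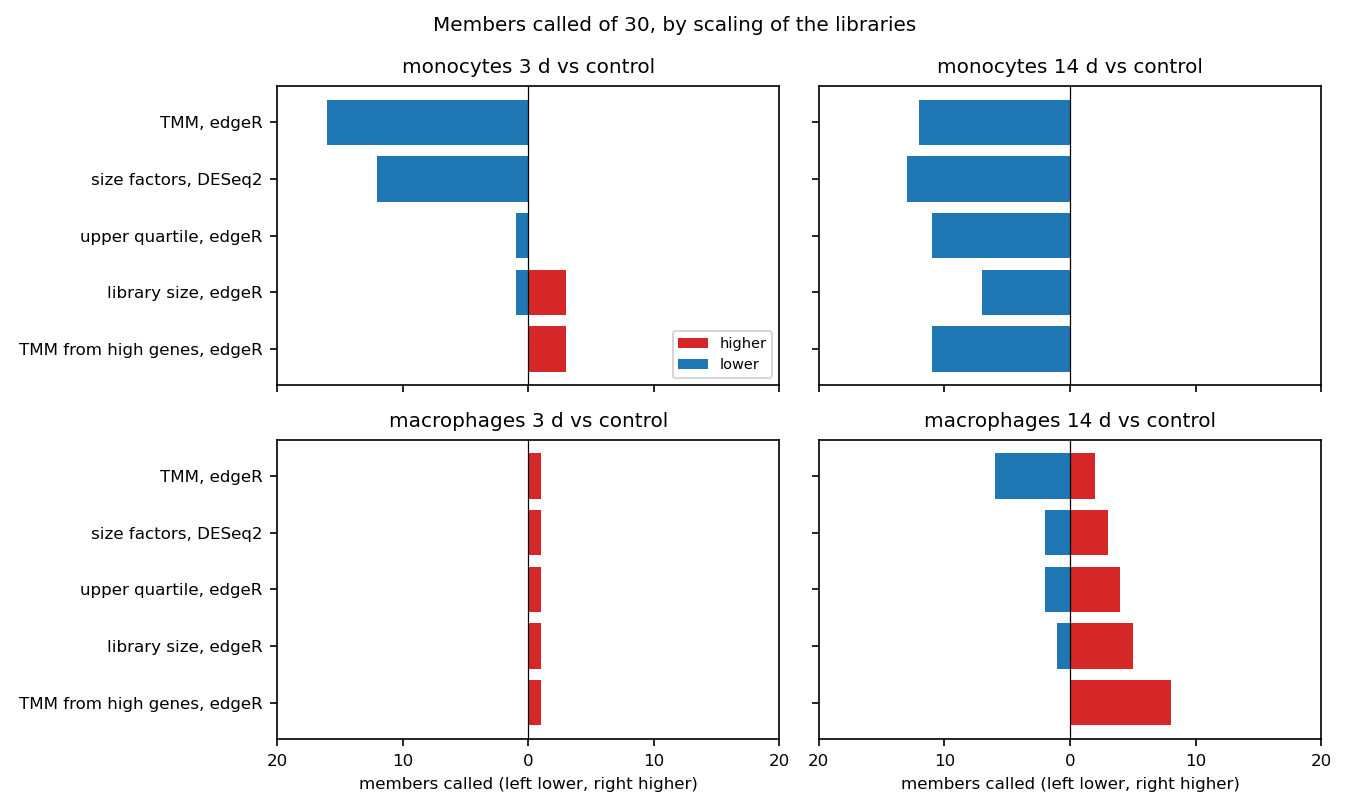
Members called of 30 (x axis, number lower to the left in blue and higher to the right in red) in the 4 comparisons with control under 5 scalings of the libraries. At 14 d in monocytes the 7 to 13 calls are all lower, and at 3 d in macrophages the single call is higher, under every scaling, whereas the other comparisons change from mostly lower to mostly higher.

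The genes lower at 3 d with TMM were 2 of 8 mevalonate, 8 of 11 sterol, 3 of 5 regulator and 2 of 5 fatty acid genes and Stard4, and 9 of the 16 were also among the 12 lower at 14 d. Both comparisons share the control samples. The largest change at 3 d was that of Hmgcs1, at the values given above. On the log2 scale Hmgcs1 was at -1.18 ± 0.295 (adjusted p = 0.0051). Msmo1, at 69.8, 61.02, 77.5 and 96.7 CPM at 3 d and below every control, kept its call in DESeq2, upper quartile and library size scaling and lost it with TMM from highly expressed genes. It stood at -1.08 ± 0.19 (adjusted p = 0.000988) on the log2 scale in TMM scaling and -0.603 in library size scaling. Hsd17b7, a reductase of the sterol steps, was at 9.41, 5.16, 9.13 and 10.1 CPM in controls, 1.300, 2.02, 4.73 and 7.53 CPM at 3 d and 4.82, 4.68, 4.84 and 7.94 CPM at 14 d. Control 2 and 3 d sample 4 brought the groups into overlap. The fitted change of Hsd17b7 on the log2 scale was -1.12 ± 0.45 (adjusted p = 0.0441), not called in DESeq2 and called in 4 of 12 fits that left out a sample. The genes higher under library size scaling and under TMM from highly expressed genes were Mvk, Tm7sf2 and Acaca, which stood at 0.11, 0.29 and 0.15 in TMM scaling and were not called there.

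Idi1 at 3 d was at -1.05 ± 0.33 (adjusted p = 0.0154) on the log2 scale in TMM scaling, Srebf2 at -0.73 ± 0.17 (adjusted p = 0.00348), Srebf1 at -0.59 ± 0.15 (adjusted p = 0.00483) and Insig2 at -0.603 ± 0.17 (adjusted p = 0.00899). None of these 4 was called under the 3 other scalings run in edgeR, and Idi1 and Insig2 were each lost without 3 d sample 1, 2 or 3 and Srebf1 in 9 of 12 fits that left out a sample. Of the sterol and mevalonate genes, 3 d sample 4 was the highest of its group for 14 of 19, whereas it was highest for 22.1% of all genes tested, and 3 d sample 2 was lowest for 11 (25.3% of all genes). Among controls, sample 1 was highest for 10 of 19 (26.3% of all genes), and at 14 d sample 2 was lowest for 12 of 19 (18.4%). The T and NK markers summed to 314, 471, 1337 and 1142.5 CPM in controls 1 to 4. These controls were highest for 10, 0, 4 and 5 of the 19 genes and lowest for 0, 5, 9 and 5. A link between the markers and these genes was not tested.

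Between 3 d and 14 d in monocytes 3 members were higher at 14 d and 1 lower with TMM scaling, where 46.5% of all genes were called, 12% higher and 34.5% lower. This split turned to none higher and 7 to 11 lower under library size scaling, upper quartile scaling and TMM from highly expressed genes, and to 1 higher and 2 lower in DESeq2. The median of the members minus that of all genes was 0.30 to 0.32 under the 5 scalings and -0.29 with the stricter filter. Fasn was lower in each of these fits (log2 fold change -0.79 ± 0.21, adjusted p = 0.00811), though without 3 d sample 4 its change was under the fold limit (-0.55, adjusted p = 0.0279). Scd2 (ENSMUSG00000025203, chr19:44293674-44306864, plus strand), a desaturase that makes oleate, was at 94.5, 76.1, 47.97 and 53.1 CPM in controls, 45.4, 33.1, 34.02 and 45.1 CPM at 3 d and 60.2, 81.1, 81.4 and 73.4 CPM at 14 d. Its 3 d samples were below all others. Between 3 d and 14 d it stood at 0.91 ± 0.21 (adjusted p = 0.00465) on the log2 scale in TMM scaling, a call kept in DESeq2 and lost in the other scalings. Scd1, the related desaturase, was low, at 2.65, 6.78, 2.69 and 4.597 CPM in controls, 1.83, 0.898, 2.53 and 2.400 CPM at 3 d and 2.92, 5.33, 3.35 and 3.79 CPM at 14 d. The 3 d samples were again lowest. For Scd1 the log2 fold change was 1.01 ± 0.397 (adjusted p = 0.0465), a call lost in DESeq2 and in the 3 other scalings and kept in 5 of 12 fits that left out a sample. Insig2 was higher at 14 d than at 3 d in TMM scaling alone (log2 fold change 0.62 ± 0.17, adjusted p = 0.00989), and not without 14 d sample 4 or 3 d sample 1, 2 or 3.

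In alveolar macrophages at 3 d a single member, Scd1, was higher than in controls and none lower, where 1.27% of all genes were called, 1.05% higher and 0.224% lower. Scd1 (ENSMUSG00000037071, chr19:44394455-44407879, minus strand), which puts the double bond into stearate, was at 33.7, 51.3, 34.5 and 26.8 CPM in the 4 controls, 83.3, 60.9 and 95.4 CPM in the 3 samples at 3 d and 92.8, 69.6 and 81.5 CPM in the 3 samples at 14 d. Every injured sample was above every control at both times. At 3 d the log2 fold change was 1.13 ± 0.201 (adjusted p = 0.0122). This call held under each scaling and in DESeq2. It was lost without control 1 (adjusted p = 0.0538), without 3 d sample 1 (adjusted p = 0.0507) and when control and 3 d samples were fitted alone. The median log2 fold change of the members was 0.12 at 3 d, against -0.01 over all genes.

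The other 29 members did not pass the test at 3 d. All 11 sterol genes were above 0 on the log2 scale, from 0.001 for Ebp to 0.54 for Hsd17b7, where 49.3% of all genes were above 0. Between scalings 3 of the 30 members changed sign. Control 2 was the highest of the controls for 17 of the 19 sterol and mevalonate genes (28.9% of all genes). For Cyp51 it stood at 238 CPM, above every sample at 3 d, with 150.4, 238, 149 and 152 CPM in controls and 229, 226 and 222 CPM at 3 d. Cyp51 was at 0.39 ± 0.16 (adjusted p = 0.279) on the log2 scale. Without control 2, 4 members were higher at 3 d, Cyp51, Hsd17b7, Scd1 and Scd2.

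**Figure D4:**
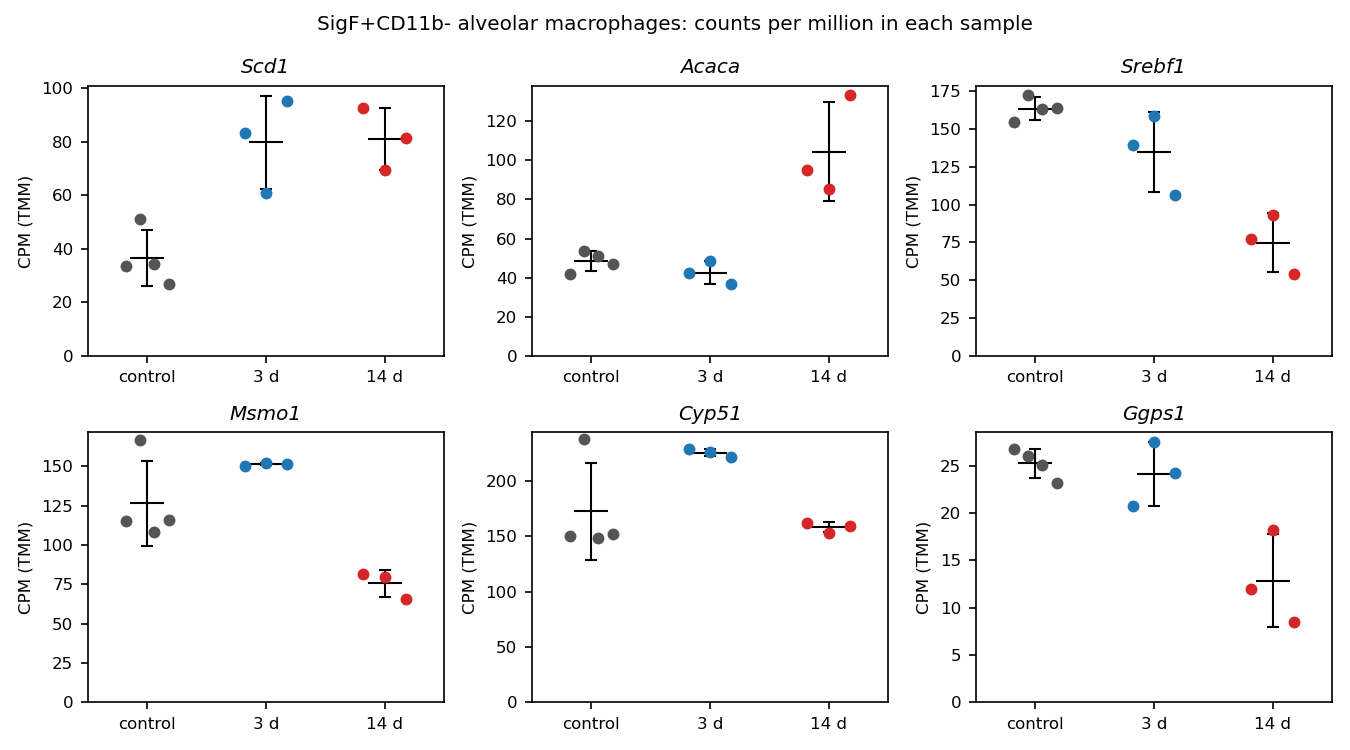
TMM-scaled CPM of 6 members in each alveolar macrophage sample, by group (control grey, n = 4, 3 d blue, n = 3, 14 d red, n = 3), with the mean and SD as a line and bar. Scd1 is higher in every injured sample and Acaca in every 14 d sample, under each scaling, while Srebf1, Msmo1 and Ggps1 are lower at 14 d in TMM scaling and Cyp51 shows the single high control.

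At 14 d in macrophages 2 members were higher and 6 lower with TMM scaling, where 62.3% of all genes tested were called, 39.4% higher and 22.9% lower. The split was 3 higher and 2 lower in DESeq2, 4 and 2 with upper quartile scaling, 5 and 1 with library size scaling and 8 and 0 with TMM from highly expressed genes. The median log2 fold change of all genes was 0.18 with TMM and 0.35 to 0.74 with the others, and that of the members -0.20 and -0.03 to 0.38. The median of the members minus that of all genes was -0.38 to -0.37 under the 5 scalings and 0.15 with the stricter filter. In all, 15 of the 30 members changed sign between the 4 scalings run in edgeR.

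The calls that held under each of these scalings were the 2 higher ones, Scd1 and Acaca, both of fatty acid synthesis. Acaca (ENSMUSG00000020532, chr11:84129672-84401651, plus strand) was at 42.04, 53.7, 51.3 and 46.9 CPM in controls, 42.4, 48.5 and 36.9 CPM at 3 d and 94.9, 85.2 and 133 CPM at 14 d. All 3 samples at 14 d were above the 7 others, which overlapped. On the log2 scale Acaca was at 1.11 ± 0.16 (adjusted p = 4.54e-05). Scd1 at 14 d was at the values given above. The fitted change of Scd1 on the log2 scale was 1.15 ± 0.203 (adjusted p = 0.00019). Scd2 was at 73.5, 147, 85.5 and 84.05 CPM in controls and 137, 114 and 146 CPM at 14 d and overlapped the controls only through control 2. It was at 0.44 ± 0.203 (adjusted p = 0.0648) on the log2 scale in TMM scaling and called higher in DESeq2 and the 3 other scalings. Fasn, at 115, 212, 143 and 128 CPM in controls and 130.1, 154 and 136 CPM at 14 d, lay within the controls. For Fasn the log2 fold change was -0.09 ± 0.18 (adjusted p = 0.659). Acly was at 349.5, 389, 374 and 396 CPM in controls, 339, 399 and 302 CPM at 3 d and 224, 265 and 234 CPM at 14 d, with the 14 d samples below the rest. It was lower in TMM scaling (log2 fold change -0.65 ± 0.14, adjusted p = 0.000743) and not called in DESeq2 or the other scalings.

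Srebf1 had the lowest adjusted p of the lower calls. It was at 154, 172, 163 and 164 CPM in controls, 139, 158 and 106 CPM at 3 d and 77.3, 92.8 and 53.9 CPM at 14 d. The 14 d samples lay below all others. The log2 change of Srebf1 was -1.13 ± 0.18 (adjusted p = 8.64e-05). The call was kept in DESeq2, upper quartile and library size scaling and lost with TMM from highly expressed genes, where the value was -0.57. Srebf2 was at 223, 279.8, 245 and 245 CPM in controls, 282, 279.7 and 245 CPM at 3 d and 201, 212 and 189 CPM at 14 d. The 14 d samples lay below the rest, with a change under the fold limit. Srebf2 was at -0.31 ± 0.13 (adjusted p = 0.0422) on the log2 scale.

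Insig1 was at 112, 142, 109 and 121 CPM in controls, 94.8, 140.1 and 93.8 CPM at 3 d and 82.7, 78.5 and 62.9 CPM at 14 d. Insig2 was at 18.97, 18.2, 21.6 and 22.4 CPM in controls, 18.1, 21.6 and 15.7 CPM at 3 d and 12.2, 16.8 and 10.3 CPM at 14 d. Both were below every control at 14 d. The log2 fold change was -0.69 ± 0.17 (adjusted p = 0.00196) for Insig1 and -0.62 ± 0.196 (adjusted p = 0.0101) for Insig2, called lower in TMM scaling but not in DESeq2 or the other scalings, and Insig2 not without 14 d sample 3. Scap was at 101, 90.6, 122 and 111 CPM in controls, 82.3, 92.97 and 74.1 CPM at 3 d and 91.6, 87.6 and 110.2 CPM at 14 d, with the groups overlapping. The fitted change of Scap on the log2 scale was -0.14 ± 0.14 (adjusted p = 0.398).

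Among the enzymes of the mevalonate and sterol steps, Ggps1 and Msmo1 were lower at 14 d in TMM scaling. Ggps1 was at 26.7, 26.00, 25.04 and 23.2 CPM in controls, 20.7, 27.5 and 24.2 CPM at 3 d and 11.96, 18.1 and 8.45 CPM at 14 d. For Ggps1 the log2 fold change was -0.96 ± 0.21 (adjusted p = 0.0011), kept in DESeq2 and upper quartile scaling. Msmo1 was at 115, 166, 108 and 116 CPM in controls, 151, 152 and 152 CPM at 3 d and 81.5, 79.6 and 65.6 CPM at 14 d. The log2 change of Msmo1 was -0.74 ± 0.16 (adjusted p = 0.0008), not called in DESeq2, in the other scalings or without control 2. The 14 d samples of both were below all others, and the 3 samples of Msmo1 at 3 d lay within 2 CPM of one another. Stard4 was at 44.4, 58.5, 41.7 and 46.2 CPM in controls, 46.4, 56.03 and 56.1 CPM at 3 d and 32.7, 36.7 and 26.2 CPM at 14 d. It was also below the others at 14 d, with a change just under the fold limit. It stood at -0.58 ± 0.16 (adjusted p = 0.00478) on the log2 scale. The remaining 17 mevalonate and sterol genes were between -0.52 (Sc5d) and 0.33 (Lss) on the log2 scale.

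Between 3 d and 14 d in macrophages 1 member was higher and 8 lower with TMM scaling, where 56.4% of all genes were called, 36.3% higher and 20% lower. The split was 1 higher and 5 lower in DESeq2, 1 and 2 with upper quartile scaling, 3 and 0 with library size scaling and 4 and 0 with TMM from highly expressed genes. The median of the members minus that of all genes was -0.61 under the 5 scalings and -0.13 with the stricter filter. Acaca was the higher one (log2 fold change 1.29 ± 0.18, adjusted p = 7.43e-05) in every scaling. Msmo1 was at -1.002 ± 0.17 (adjusted p = 0.000259), Ggps1 at -0.895 ± 0.23 (adjusted p = 0.00352), Srebf1 at -0.85 ± 0.19 (adjusted p = 0.00155) and Stard4 at -0.73 ± 0.17 (adjusted p = 0.00223) on the log2 scale in TMM scaling. The other lower calls were Fdps, Fdft1, Hsd17b7 and Sc5d, of which Fdps was lost without 3 d sample 1 or 14 d sample 2 or 3. Leaving out a sample gave 8 to 18 calls, 14 without control 4, 17 without 3 d sample 2 and 18 without 3 d sample 3.

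The cell types were set side by side in a joint fit of the 22 samples over 26692 genes. Monocytes and macrophages were counted in separate files with separate filters, so levels between them also carry any difference in how the files were made. In control samples 13 members were higher in macrophages and 5 lower, where 44.2% of all genes were called, 24.5% higher and 19.7% lower. The median log2 difference of the members was 0.45, against 0.05 over all genes. Of these, Mvk, Mvd, Lss, Tm7sf2, Dhcr7, Insig1, Scap, Acaca, Fasn and Scd1 were higher and Ggps1 and Sc5d lower under all 4 scalings run in edgeR. The split was 10 and 6 with upper quartile scaling, 16 and 2 with TMM from highly expressed genes and 21 and 2 with library size scaling, and 8 of 30 members changed sign between these. The scalings moved the median of all genes between -0.28 and 0.47. That of the members was 0.38 to 0.42 above it, a difference that scaling can hardly move, and 0.43 above it with the stricter filter.

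**Figure D5:**
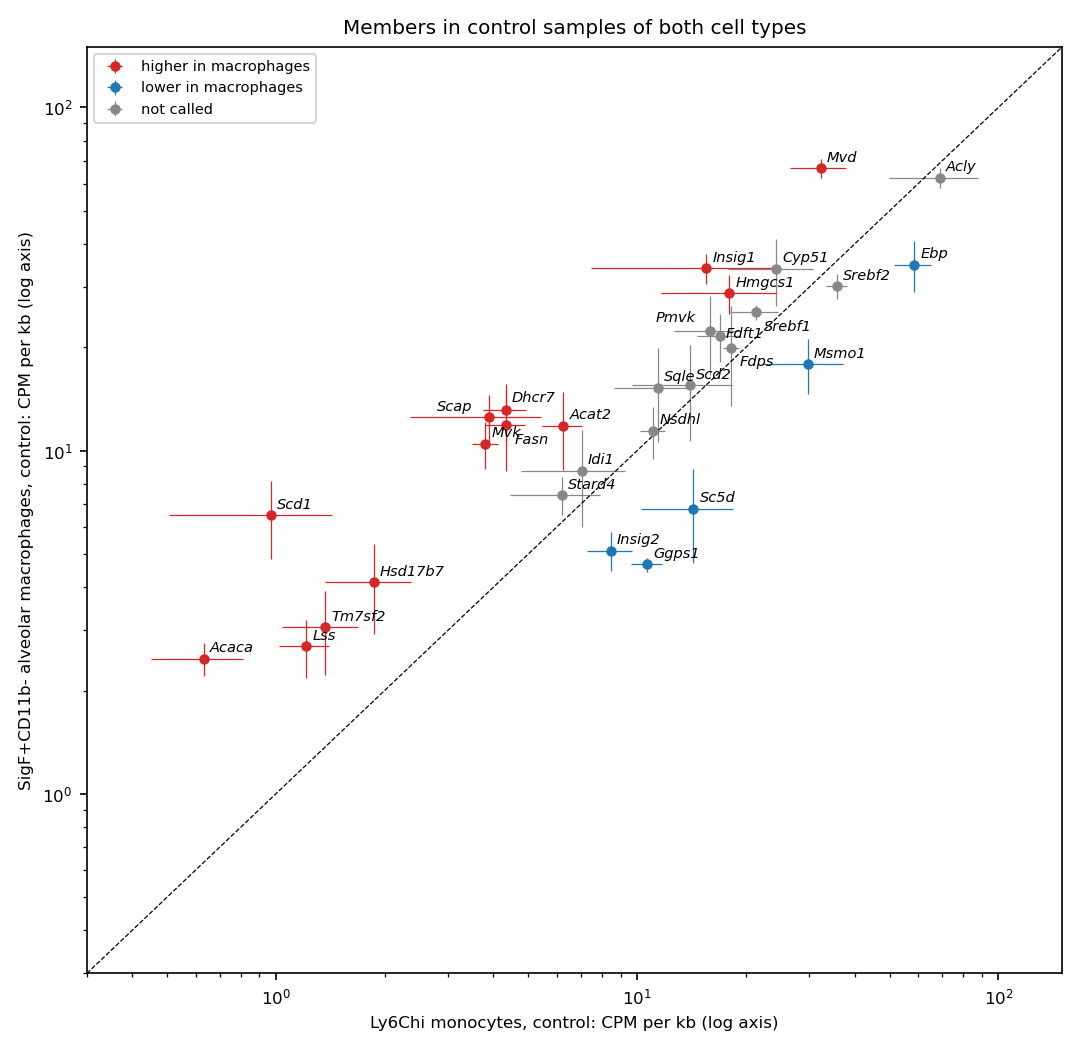
Mean CPM per kilobase of exonic length of the 30 members in control monocytes (x axis) and control macrophages (y axis), both on a log axis, with SD bars and n = 4 per cell type, coloured by the call between the cell types in TMM scaling. Scd1, Acaca, Scap, Dhcr7, Mvk and Fasn lie farthest above the dashed line of equal level and Ggps1 and Sc5d below it.

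Per kilobase of exonic length, Acly was the most abundant member in control monocytes (68.8 ± 18.9 CPM per kb, mean ± SD, n = 4), ahead of Ebp (58.4 ± 6.87), with overlapping ranges. In control macrophages Mvd (66.6 ± 4.39 CPM per kb) and Acly (62.4 ± 4.26) led, again within their spread. Ebp (34.9 ± 5.83), Insig1 (34.1 ± 3.405) and Cyp51 (33.9 ± 7.57) followed, with ranges that overlapped one another and those of members below them. Exonic length joins the exons of all annotated transcripts of a gene, and the order per kilobase depends on it. Acaca had the lowest mean in both cell types (0.632 ± 0.1800 CPM per kb in monocytes and 2.48 ± 0.2700 in macrophages), with a range that overlapped that of Scd1 in monocytes and of Lss in macrophages.

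The widest gaps in level between the control cell types were those of Scd1 and Acaca. Scd1 was at 0.968 ± 0.462 CPM per kb in control monocytes and 6.49 ± 1.66 in control macrophages, a log2 difference of 2.75 ± 0.31 (adjusted p = 3.26e-08), and Acaca differed by 1.97 ± 0.21 (adjusted p = 1.49e-08). Scap differed by 1.68 ± 0.22 (adjusted p = 3.21e-07), Dhcr7 by 1.596 ± 0.18 (adjusted p = 4.44e-08) and Fasn by 1.45 ± 0.196 (adjusted p = 7.51e-07), all higher in macrophages. Sc5d, at -1.08 ± 0.24 (adjusted p = 0.000547), and Ggps1, at -1.19 ± 0.16 (adjusted p = 1.02e-06), were lower. Srebf1 and Srebf2 were at 0.25 ± 0.16 (adjusted p = 0.204) and -0.24 ± 0.15 (adjusted p = 0.195), neither called.

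At 3 d 22 members were higher in macrophages and 2 lower, where 63.1% of all genes were called, 20.4% higher and 42.7% lower. The counts were 17 to 22 higher and 2 to 3 lower under the other scalings. The median of the members was 1.97 to 2.00 above that of all genes under the 5 scalings and 1.07 above it with the stricter filter. The 17 members higher under all 4 scalings run in edgeR included, with their log2 differences, Hmgcs1 (1.797 ± 0.27, adjusted p = 4.41e-06), Cyp51 (1.63 ± 0.27, adjusted p = 2.07e-05), Dhcr7 (2.29 ± 0.19, adjusted p = 4.53e-10) and Scd1 (4.84 ± 0.35, adjusted p = 2.28e-11). At 14 d 15 were higher and 6 lower, where 63.7% of all genes were called, 40.4% higher and 23.3% lower, so the share of members called was near the background. The split was 18 and 6 with upper quartile scaling or DESeq2 and 23 and 3 with library size scaling or TMM from highly expressed genes. Scd1, at 3.69 ± 0.33 (adjusted p = 6.36e-10), and Acaca, at 2.79 ± 0.22 (adjusted p = 1.11e-10), were again the farthest apart. The median of the members minus that of all genes at 14 d was -0.43 to -0.39 under the 5 scalings and 1.02 with the stricter filter.

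The change after tamoxifen was compared between the cell types as an interaction, the macrophage change minus the monocyte change. At 3 d the difference was called for 9 members, all higher on the log2 scale, where 3.51% of all genes had a higher and 15.2% a lower difference. Scd1 (2.09 ± 0.43, adjusted p = 0.0033) and Msmo1 (1.17 ± 0.26, adjusted p = 0.00459) were called under all 4 scalings run in edgeR, and the count was 11 in DESeq2, 4 with upper quartile scaling and 2 with library size scaling or TMM from highly expressed genes. The other 7 were Hmgcs1, Fdft1, Sqle, Cyp51, Hsd17b7, Srebf2 and Scd2. Leaving out a sample gave 2 to 13 calls. The count was 2 without macrophage 3 d sample 1, and 4 without control 1 of either cell type or monocyte 3 d sample 1 or 2. It was 5 without control 4 of either cell type, monocyte 3 d sample 3 or macrophage 3 d sample 2.

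At 14 d the difference was called for 6 members, 1 higher and 5 lower, where 16.9% of all genes had a higher and 19.9% a lower difference. With the other scalings 10 to 16 were higher and 0 to 2 lower. Acaca was higher in every scaling (0.82 ± 0.298, adjusted p = 0.0346 in TMM scaling) but not without monocyte control 4, monocyte 14 d sample 1, macrophage control 1 or 4 or macrophage 14 d sample 3, nor with replicate numbers as a block. Leaving out monocyte control 3 or macrophage control 2 gave 10 calls. The 5 lower in TMM scaling were Mvd, Ggps1, Ebp, Srebf1 and Insig2, which stayed below 0 under every scaling, while the call was kept by Srebf1 in DESeq2 and library size scaling and by Ebp in DESeq2.

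A list of 26 further genes of the pathway and its neighbours was read beside the members, with values on the log2 scale. In monocytes 3 rose and 3 fell at 14 d, the same numbers in each of the 5 scalings. Of all genes tested 3.22% were called higher and 5.34% lower there in TMM scaling. Lpin1, a phosphatidate phosphatase (-1.77 ± 0.19, adjusted p = 5.70e-05), Acss2, which makes acetyl-CoA from acetate (-1.56 ± 0.23, adjusted p = 0.000638), and Mid1ip1, an activator of acetyl-CoA carboxylase (-1.01 ± 0.18, adjusted p = 0.0019), fell. The fatty acid binding protein Fabp5 (2.78 ± 0.596, adjusted p = 0.0122) and the desaturase genes Fads3 (2.02 ± 0.46, adjusted p = 0.0125) and Fads1 (1.68 ± 0.297, adjusted p = 0.00215) rose, and of these 6 the call was lost, in fits that tested the gene, by Fabp5 alone, without control 2 or without the filter on low counts. At 3 d, in TMM scaling, 4 were higher, with Acacb (3.67 ± 0.52, adjusted p = 0.00043), Fads2 (2.11 ± 0.36, adjusted p = 0.000808) and Fabp5 (1.44 ± 0.57, adjusted p = 0.048) first, and 11 lower, with Mylip (-1.62 ± 0.39, adjusted p = 0.00421), Nr1h3 (-1.25 ± 0.46, adjusted p = 0.0344) and Elovl5 (-1.23 ± 0.195, adjusted p = 0.000648) first. Over all genes tested 36.8% were called higher and 14.4% lower at 3 d in TMM scaling. The split of the 26 was 5 higher and 9 lower in DESeq2 and 5 higher and 3 to 4 lower with the 3 other scalings, where Nr1h3 was lost, and Fabp5 kept its call in 2 of 12 fits that left out a sample. Between 3 d and 14 d 5 were higher, led by Mylip (1.26 ± 0.39, adjusted p = 0.0168), Fads1 (1.06 ± 0.29, adjusted p = 0.0101) and Cyb5r3 (0.86 ± 0.16, adjusted p = 0.00174), and 3 lower, Acacb (-3.15 ± 0.51, adjusted p = 0.000956), Fads2 (-2.502 ± 0.37, adjusted p = 0.000692) and Lpin1 (-0.64 ± 0.19, adjusted p = 0.0131). Over all genes tested 12% were called higher and 34.5% lower between 3 d and 14 d in TMM scaling. Outside TMM and DESeq2 the 5 higher calls were lost and 5 to 7 of the 26 were lower, and Lpin1 was lost without 3 d sample 4 or 14 d sample 1 or 2.

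In macrophages none of the 26 was called at 3 d by the edgeR test, with 5 higher and 1 lower at an unadjusted p under 0.05, and 1 was called higher in DESeq2. Over all genes tested 1.27% were called at 3 d in TMM scaling. At 14 d 6 of the 26 were higher and 9 lower in TMM scaling, where 39.4% of all genes tested were called higher and 22.9% lower. The higher ones included Acacb, the mitochondrial acetyl-CoA carboxylase (3.52 ± 0.34, adjusted p = 1.74e-06), Me1, the malic enzyme that supplies NADPH (3.18 ± 0.29, adjusted p = 1.02e-06), and Fads3 (2.45 ± 0.29, adjusted p = 6.62e-06). The lower ones included Lpin1 (-2.33 ± 0.42, adjusted p = 0.000801), the elongase Elovl5 (-1.41 ± 0.18, adjusted p = 1.37e-05) and the thiolase Acat1 (-1.06 ± 0.15, adjusted p = 4.46e-05), of which Acat1 was lost with TMM from highly expressed genes. The split moved to 8 higher and 7 lower in DESeq2 and to 9 to 12 higher and 2 to 4 lower with the 3 other scalings. Between 3 d and 14 d 6 were higher, led by Acacb (2.597 ± 0.36, adjusted p = 8.15e-05), Me1 (2.27 ± 0.31, adjusted p = 6.48e-05) and Fads3 (2.001 ± 0.31, adjusted p = 0.000153), and 8 lower, led by Lpin1 (-1.39 ± 0.42, adjusted p = 0.0169), Fabp5 (-1.34 ± 0.26, adjusted p = 0.000786) and Elovl5 (-1.18 ± 0.19, adjusted p = 0.000174). Over all genes tested 36.3% were called higher and 20% lower between 3 d and 14 d in TMM scaling. The split of the 26 was 6 and 7 in DESeq2 and 9 to 11 higher and 2 to 6 lower with the 3 other scalings, and Lpin1 was lost in 2 of these and without any single 14 d sample.

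Between the cell types 10 of the 26 were higher in control macrophages, led by Fads1 (2.38 ± 0.28, adjusted p = 6.31e-08), Fads3 (2.31 ± 0.38, adjusted p = 1.57e-05) and Fads2 (2.22 ± 0.39, adjusted p = 3.22e-05), and 8 lower, led by Lbr (-4.55 ± 0.27, adjusted p = 3.38e-13), Acss2 (-1.88 ± 0.22, adjusted p = 9.03e-08) and Elovl1 (-1.41 ± 0.14, adjusted p = 7.97e-09). Over all genes tested 24.5% were called higher and 19.7% lower in control macrophages. Lbr carries the same sterol reductase activity as the member Tm7sf2, which was higher in macrophages (1.16 ± 0.25, adjusted p = 0.000442). Lbr was also the lowest of the list in macrophages against monocytes at 3 d (-3.15 ± 0.29, adjusted p = 1.44e-09, 10 higher and 6 lower) and at 14 d (-3.38 ± 0.29, adjusted p = 3.30e-10, 10 higher and 10 lower). Over all genes tested 20.4% were called higher and 42.7% lower at 3 d, and 40.4% higher and 23.3% lower at 14 d. The calls named here between the cell types held under each scaling. The change after tamoxifen differed between the cell types for 5 higher and 2 lower at 3 d and for 5 higher and 8 lower at 14 d, in TMM scaling, with 1 to 6 higher and 2 lower at 3 d and 8 to 10 higher and 2 to 6 lower at 14 d in the others. In TMM scaling 3.51% of all genes had a higher and 15.2% a lower difference at 3 d, and 16.9% and 19.9% at 14 d.

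As a share of all counts of a sample, which is the same as library size scaling, the 30 members took 0.144 to 0.183% in control monocytes, 0.125 to 0.183% at 3 d and 0.111 to 0.131% at 14 d. Every 14 d sample was below every control, and the 3 d samples overlapped the controls. In macrophages the share was 0.228 to 0.312% in controls, 0.253 to 0.295% at 3 d and 0.278 to 0.298% at 14 d, with all 3 groups overlapping, and every macrophage sample was above every monocyte sample.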

How the data were processed

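The authors deposited raw counts per gene in 2 files, 1 per cell type, made from libraries of the NEBNext Ultra kit after oligo(dT) enrichment of extracted total RNA. Per the labels, the submitters' processing notes name STAR 2.7.2c and 2.7.3a, featureCounts 1.6.3, DESeq2 1.26.0 and 1.28.1 and the builds GRCm38 and mm10, while the annotation release and strand setting are not given in the sources used here. Every column was tied to a sample by its name, and 0 columns belonged to no sample. Gene positions and overlaps came from the GRCm38 annotation.

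Counts were filtered with filterByExpr, scaled by TMM and tested in R 4.3.3 with the quasi-likelihood test of edgeR 4.0.16 (limma 3.58.1), all groups of a cell type in 1 fit and all 22 samples in a joint fit for comparisons between cell types. P-values were adjusted by Benjamini-Hochberg over all genes tested, and a call needed both an adjusted p below 0.05 and a change of over 1.5 times. CPM values are counts per 1e6 after TMM scaling, and CPM per kb divides them by exonic length. Simulated data were tested for monocytes at 14 d against control and for macrophages at 3 d against control. Only 100 genes at each true value, of moderate level, were changed there, among 20512 genes tested in monocytes and 18909 in macrophages. These are far fewer than the 1914 genes called in the real monocytes at 14 d, so the recovery need not hold for the real data. At a true log2 fold change of 1, 28 of 100 genes were recovered in monocytes and 70 of 100 in macrophages. At a true value of 2, 94 and 98 of 100 were recovered. Of the genes called there, 7.58% in monocytes and 6.67% in macrophages were false. A member not called in monocytes at 14 d may still differ. The members and lists were chosen with earlier results of these data known.

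All 30 members were accounted for. Values per sample were given for the 5 regulators and for members called in a cell type, in full for up to 5 with the largest change in a comparison, further genes of the pathway were given as counts with the 3 largest in each direction, and markers as ranges. Members that did not pass the test but are given by sample were chosen after their values were seen.

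Alternatives were library size scaling, upper quartile scaling, TMM computed on genes averaging over 5 log2 CPM, DESeq2 1.42.0, no filter, a stricter filter that kept genes averaging over 1 log2 CPM, no fold limit, non-robust dispersion, replicate number as a block, the compared groups alone and leaving out each sample. Numbers were taken to pair samples where the deviations of every same-numbered pair correlated above 0.1. Of the sets compared, the controls of both cell types alone met this (0.142 to 0.238 over 4 pairs). The 12 other-numbered pairs of that set ranged from -0.278 to 0.252, so the rule alone does not show that the numbers pair samples. The block left the 13 higher and 5 lower members of that comparison as they were. No pair of samples of the same group agreed within sampling noise, and pairs across groups were not checked. A count floor of 3 corresponded to 0.121 to 0.507 CPM, and floors cover counting error only.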

Additional observations from a re-analysis of the deposited data

Results flagged for a closer look

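In groups of 4 samples, a member's highest or lowest value lay far from the other 3 by Dixon's criterion in 12 of 120 checks (30 members in 4 groups), where chance gives about 1 in 20. In monocytes at 14 d the highest sample stood apart for Hmgcs1 (48.0 CPM), Fdps (34.6 CPM), Hsd17b7 (7.94 CPM) and Stard4 (19.1 CPM), and the lowest for Lss (4.42 CPM). In monocytes at 3 d the highest sample stood apart for Fdft1 (44.3 CPM), and in control monocytes for Lss (14.6 CPM) and Insig2 (32.2 CPM). In control macrophages the highest sample stood apart for Cyp51 (238 CPM), Msmo1 (166 CPM), Sc5d (57.2 CPM) and Scd2 (147 CPM), each time control 2.

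The change after tamoxifen, macrophage minus monocyte, was called different between the cell types for the members below in TMM scaling. Of these calls only Msmo1 and Scd1 at 3 d and Acaca at 14 d held under all 4 scalings run in edgeR. In TMM scaling 3.51% of all genes had a higher and 15.2% a lower difference at 3 d, and 16.9% and 19.9% at 14 d. At 3 d the log2 difference was 1.12 for Hmgcs1, 0.90 for Fdft1, 0.92 for Sqle, 1.15 for Cyp51, 1.17 for Msmo1, 1.5001 for Hsd17b7, 0.67 for Srebf2, 2.09 for Scd1 and 1.15 for Scd2. At 14 d it was -0.93 for Mvd, -0.92 for Ggps1, -1.07 for Ebp, -1.37 for Srebf1, -0.99 for Insig2 and 0.82 for Acaca.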

How the results depend on the processing

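Of 30 members, the number called in monocytes went from 16 at 3 d to 4 with library size scaling, 1 with upper quartile scaling, 3 with TMM from highly expressed genes and 1 with the stricter filter, from 12 at 14 d to 7 with library size scaling, and from 4 between 3 d and 14 d to 7 with no fold limit, library size scaling or no filter, 9 with upper quartile scaling and 11 with TMM from highly expressed genes. In macrophages it went from 1 at 3 d to 0 with the compared groups alone, from 8 at 14 d to 5 in DESeq2, and from 9 between 3 d and 14 d to 15 with no fold limit, 17 with no filter, 3 with library size or upper quartile scaling and 4 with TMM from highly expressed genes or the stricter filter. The difference of the change went from 9 at 3 d to 2 with library size scaling or TMM from highly expressed genes, 4 with upper quartile scaling and 3 with the stricter filter, and from 6 at 14 d to 13 with library size scaling or the stricter filter, 12 with upper quartile scaling or DESeq2 and 16 with TMM from highly expressed genes. The cause of these moves was not tested.

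Leaving out a sample gave 8 to 17 calls in monocytes at 3 d, 6 to 13 at 14 d and 3 to 4 between them, 0 to 4, 7 to 12 and 8 to 18 in macrophages, 17 to 19, 23 to 27 and 19 to 23 between the cell types in controls, at 3 d and at 14 d, and 2 to 13 and 5 to 10 for the difference of the change at 3 d and 14 d. Between the 4 scalings run in edgeR, 10, 3 and 8 of the 30 members changed sign in monocytes at 3 d, at 14 d and between them, 3, 15 and 10 in macrophages, 8, 2 and 3 between the cell types in controls, at 3 d and at 14 d, and 5 and 10 for the difference of the change at 3 d and 14 d. Most of these values were called in none of the scalings. Among values called in TMM scaling or under the alternative, signs turned between macrophages and monocytes at 14 d for Msmo1 (0.0423 with library size scaling) and Sc5d (0.0882, and 0.0084 with TMM from highly expressed genes), and for the difference of the 14 d change, with TMM from highly expressed genes, for Nsdhl (0.82), Dhcr7 (0.71) and Scd2 (0.85).

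With the replicate number as a block 14 members were lower in monocytes at 3 d and 12 at 14 d, 8 lower and 2 higher in macrophages at 14 d, and the difference of the 3 d change was called for 5 rather than 9. Between control and 14 d monocytes all 4 same-numbered pairs correlated above 0 (0.0892 to 0.521, 3 of them above 0.1), a hint from the data that the labels do not settle, and the block left the count there at 12. The other-numbered pairs there ranged from -0.456 to 0.29. No label says that the numbers mark shared mice or days.

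The macrophage libraries at 14 d were the shallowest, so small changes there are the least certain. Values in that group and in monocytes at 3 d depend most on scaling, and both 14 d groups also differ in sex.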
